A study of Homo sapiens with 12 samples.

Results

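The genes described here are 10 genes of neuronal differentiation: GAP43, the neurofilament genes NEFH, NEFM and NEFL, NEUROG2, ZCCHC12, SYBU, GRIK2, ENO2 and UCHL1. They were taken by gene symbol from the platform's annotation, which gave them 13 of the 47322 probes. They are 10 of the 11835 genes that could be tested. The genes were chosen by their measured differences on these arrays: GAP43 and ZCCHC12 were noted as higher and NEUROG2 as lower with a miR-130b mimic, and SYBU as higher with an anti-miR. Differences of these 10 genes between groups are therefore given as descriptions. Where the number past limma's threshold is stated for them, it stands beside the share of all genes and supports nothing.

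The cells were TC71, an established Ewing sarcoma line and all groups share it. RNA was taken at 48 h from cells that, by their labels, expressed either a scramble control, a miR-130b mimic or a miR-130b anti-miR. Each of the 3 groups has 4 arrays numbered 1 to 4, so 12 arrays in all. The labels do not state the chemistry of the reagents, how they entered the cells, or whether the 4 arrays of a group came from separate cultures, so the errors given measure the spread between these samples, which may be technical. MIR130B, which encodes the microRNA, has a probe that was detected on 0 of 12 arrays and so checks neither reagent.

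Ewing sarcoma is a tumour of bone and soft tissue driven by a fusion of an FET-family gene with an ETS-family gene, and its cells often carry some neural features although they form no neurons. Neurons are made when proneural transcription factors such as neurogenin 2 (NEUROG2) start a differentiation programme. Growth cone proteins such as GAP-43 then act in the extending axon, and the 3 neurofilament subunits fill its shaft. Neuron-specific enolase (ENO2) and the ubiquitin hydrolase UCHL1, also called PGP9.5, have long been used as stains for neuroendocrine differentiation.

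MicroRNAs bind messenger RNAs through a seed, bases 2 to 8 of the mature strand, and lower their stability or translation. The labels do not say which arm of the hairpin the mimic carries. Both mature arms are shown because they are the sequences the reagents are named for. They come from RefSeq (GRCh38.p14), 5′ to 3′, with the seed in capitals. The hairpin lies on the plus strand of chromosome 22, with the 3p arm at chr22:21653354-21653375 and the 5p arm at chr22:21653316-21653336.
hsa-miR-130b-3p: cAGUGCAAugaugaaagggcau
hsa-miR-130b-5p: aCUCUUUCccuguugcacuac
The messenger RNA letters that pair with the 3p seed are UUGCACU. Transcript sequences of the 10 genes were not used here, so it was not examined which of them hold that site.

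The upstream sequences of GAP43, ZCCHC12 and NEUROG2 are shown because these 3 genes had the largest differences among the 10 under the mimic, in both directions. Each is the 250 bases before the start site in the RefSeq table (GRCh38.p14), read 5′ to 3′ along the gene. Capitals mark matches to an E-box, CANNTG, the kind of site that proneural factors bind, or to an AP-1 site, TGANTCA. Both motifs were searched on both strands, and neither overlapped the other in these windows.
GAP43, chr3:115623260-115623509, plus strand: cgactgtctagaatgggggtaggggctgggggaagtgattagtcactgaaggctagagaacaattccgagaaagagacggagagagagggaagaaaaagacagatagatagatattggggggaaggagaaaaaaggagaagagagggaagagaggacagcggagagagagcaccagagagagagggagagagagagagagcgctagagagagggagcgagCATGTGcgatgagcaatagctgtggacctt
ZCCHC12, chrX:118823574-118823823, plus strand: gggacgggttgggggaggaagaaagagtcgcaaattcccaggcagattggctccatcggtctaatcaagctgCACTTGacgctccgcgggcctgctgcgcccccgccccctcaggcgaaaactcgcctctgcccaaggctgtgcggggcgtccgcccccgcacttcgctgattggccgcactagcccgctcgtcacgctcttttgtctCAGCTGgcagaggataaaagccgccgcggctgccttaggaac
NEUROG2, chr4:112516181-112516430, minus strand: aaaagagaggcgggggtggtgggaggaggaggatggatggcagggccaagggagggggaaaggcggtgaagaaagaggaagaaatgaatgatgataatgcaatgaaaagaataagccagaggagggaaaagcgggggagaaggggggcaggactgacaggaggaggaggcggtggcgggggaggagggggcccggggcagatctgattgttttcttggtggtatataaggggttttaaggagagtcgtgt
GAP43 held 1 E-box, ZCCHC12 held 2 and NEUROG2 held 0, while 61.8% of 35116 promoter windows of this length hold at least 1. None of the 3 held the AP-1 letters, which 6.57% of windows hold. Of the 10 genes, 6 had a promoter entry, and ENO2 was the one of them with an AP-1 match.

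Probe intensities were background-corrected, quantile normalized and converted to log2, and values below are on that log2 intensity scale. A probe counted as detected on an array when its deposited detection p was under 0.05. Median raw intensity was 85.5 to 88.8 on scramble arrays, 84.5 to 87.6 on mimic arrays and 72 to 82.5 on anti-miR arrays, and 19008 to 20544 probes were detected per array. Values were compared with limma over all 11835 genes, with 0.05 as the threshold on the adjusted p. All 10 genes passed the detection filter, with 12 of their 13 probes; the remaining probe, a GRIK2 probe, was detected on 0 arrays. Of the markers of Ewing sarcoma with a probe, 13 of 14 were detected on all 12 arrays, CD99 and NKX2-2 among them. Of 11 markers of mature neurons, SYN1, TUBB3, SLC17A7 and SYT1 were detected on all 12 arrays, and STMN2, GAD1 and GAD2 on 0. RBFOX3, SNAP25 and SLC17A6 were detected on 1 array each, and MAP2 on 5 by its most often detected probe. The 10 genes are thus measured in cells with a partial set of neuronal transcripts. The log2 of the summed intensity of the 5 neuron markers tested was 11.51 to 11.55 on scramble, 11.42 to 11.56 on mimic and 11.60 to 11.78 on anti-miR arrays. The same quantity for the 13 tested Ewing sarcoma markers was 15.33 to 15.42 on scramble, 15.50 to 15.58 on mimic and 15.31 to 15.50 on anti-miR arrays. Mimic and scramble arrays thus did not overlap in this sum, in which the brightest genes weigh most. Gene by gene the markers did not rise as a set, with a median difference of 0.02 under the mimic against 0 over all genes. By limma 2 of the 13 rose and 4 fell under the mimic, 46.2% against 16.2% of all genes, 7.44% higher and 8.77% lower. The part of either marker list in the values below was not tested.

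Under the mimic, GAP43, the neurofilament genes, ZCCHC12 and UCHL1 stood higher than under scramble, NEUROG2 stood lower, and GRIK2 stayed level. Differences over the 10 genes ran from -0.58 to 1.29, with a median of 0.46 against 0 over all genes. In bulk RNA, fewer cells of a type and less RNA per cell cannot be told apart. By limma 7 of the 10 passed the threshold, 6 higher and 1 lower, where 16.2% of all genes did, 7.44% higher and 8.77% lower; since this comparison was used to choose the genes, nothing is read from that count. Mimic and scramble arrays did not overlap for 6 of the 10, 4 higher and 2 lower, against 21.0% of all genes, 10.4% higher and 10.6% lower. With the anti-miR the range was -0.43 to 0.60 with a median of -0.04 against -0.02 over all genes, and 2 of 10 passed, SYBU higher and GRIK2 lower, against 0.127% of all genes, 0.0676% higher and 0.0591% lower. The arrays of these 2 genes did not overlap, as for 8.94% of all genes, 3.50% higher and 5.44% lower; the genes were chosen on this comparison too. The number past the threshold was 1 without mimic array 2 or anti-miR array 2, 2 without mimic array 3 and 0 without any other array. Both comparisons use the same 4 scramble arrays.

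**Figure D1:**
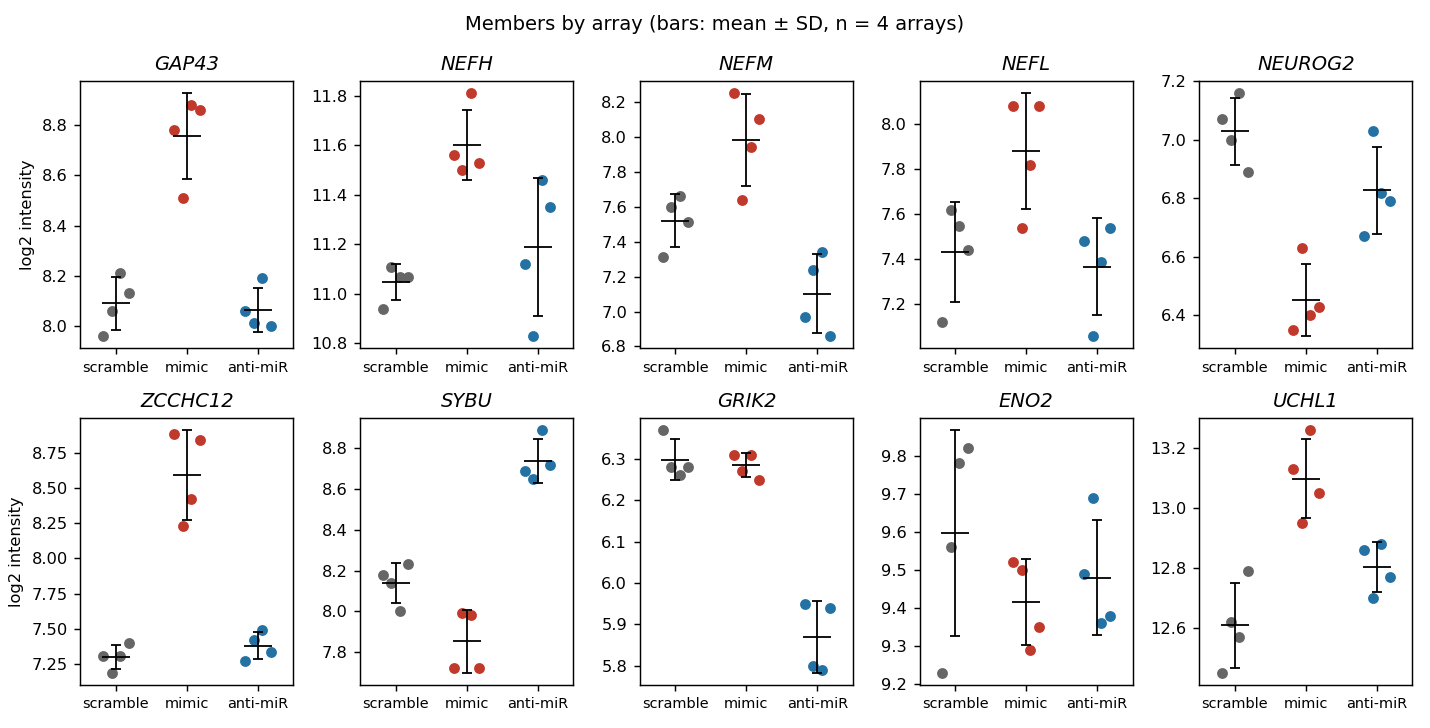
Each panel shows 1 gene, with log2 intensity on the vertical axis (each panel has its own range) and the 4 arrays of each group as points in the order 1 to 4; bars are mean ± SD. GAP43 and ZCCHC12 stand apart upwards in the mimic group, NEUROG2 downwards, SYBU upwards and GRIK2 downwards in the anti-miR group.

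GAP43 encodes growth-associated protein 43, a protein kinase C substrate of the growth cone that binds calmodulin. Its log2 values on arrays 1 to 4 were 7.96, 8.06, 8.21 and 8.13 with scramble, 8.78, 8.51, 8.88 and 8.86 with the mimic, and 8.06, 8.01, 8.19 and 8.0 with the anti-miR. The lowest mimic array lay above the highest of the other 8, while scramble and anti-miR arrays overlapped over most of their range. The mimic difference was 0.67 ± 0.10 (moderated SE, n = 4 per group), a 1.59-fold higher level, and the anti-miR difference was -0.02 ± 0.10. The mimic arrays were also highest before any normalization, with raw intensities of 446.1 to 527.6 against 334.9 to 373.4 under scramble. Raw anti-miR intensities were 273.5 to 311.8, below all scramble arrays, on arrays whose median intensity was lower. The likeness of anti-miR and scramble arrays for this gene therefore holds only after normalization.

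The neurofilament genes encode the heavy, medium and light subunits that copolymerize into the intermediate filaments of axons. NEFH, the heavy subunit, read 10.94, 11.11, 11.07 and 11.07 with scramble, 11.56, 11.50, 11.81 and 11.53 with the mimic, and 11.12, 10.83, 11.46 and 11.35 with the anti-miR. Its mimic arrays lay above all others, and the anti-miR arrays were spread widely, with an SD of 0.28 against 0.07 for scramble. The differences from scramble were 0.55 ± 0.12 with the mimic and 0.14 ± 0.12 with the anti-miR.

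NEFM, the medium subunit, read 7.31, 7.60, 7.66 and 7.51 with scramble, 8.25, 7.64, 7.94 and 8.10 with the mimic, and 6.97, 7.24, 7.34 and 6.86 with the anti-miR. It was the neurofilament gene with the reagents furthest apart: 0.46 ± 0.14 above scramble with the mimic, 0.42 below it with the anti-miR (-0.42 ± 0.14), and 0.88 ± 0.14 between the reagents. The mimic and anti-miR arrays did not overlap, whereas each overlapped scramble, through mimic array 2 on one side and anti-miR array 3 on the other. NEFL, the light subunit, read 7.12, 7.62, 7.55 and 7.44 with scramble, 8.08, 7.54, 7.82 and 8.08 with the mimic, and 7.48, 7.06, 7.39 and 7.54 with the anti-miR. Its mimic difference of 0.45 ± 0.15 came with overlapping groups, and its anti-miR difference was -0.06 ± 0.15. Over 20 other settings the mimic difference was 0.37 to 0.57 for NEFM and 0.35 to 0.56 for NEFL. The lowest NEFM value came without mimic array 1 and the lowest NEFL value without scramble array 1. NEFM was past limma's threshold under the mimic in 10 of these 20 settings and NEFL in 5.

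NEUROG2 encodes a proneural transcription factor of the basic helix-loop-helix class. Its log2 values were 7.07, 7.0, 7.16 and 6.89 with scramble, 6.35, 6.63, 6.40 and 6.43 with the mimic, and 6.67, 7.03, 6.82 and 6.79 with the anti-miR. All 4 mimic arrays lay below the other 8, and the anti-miR arrays reached from the scramble range to below it. The mimic difference was -0.58 ± 0.10, a 1.49-fold lower level, and the anti-miR difference was -0.20 ± 0.10. Both reagents thus lay on the same side of scramble for this gene, with -0.38 ± 0.10 between mimic and anti-miR. Raw intensities were 138 to 161.4 with the mimic and 175.9 to 227.5 with scramble, above the array medians in each case. Raw anti-miR intensities, 145.2 to 182.6, overlapped the mimic range. The gap between mimic and anti-miR arrays for this gene therefore holds only after normalization. Over 20 other settings the mimic difference of NEUROG2 was -0.68 to -0.44, with -0.44 at an offset of 50.

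ZCCHC12 encodes a zinc-finger protein that in mouse acts as a transcriptional coactivator in bone morphogenetic protein (BMP) signalling. It read 7.31, 7.19, 7.31 and 7.40 with scramble, 8.88, 8.23, 8.42 and 8.84 with the mimic, and 7.27, 7.42, 7.49 and 7.34 with the anti-miR. The mimic arrays fell in a high pair, 1 and 4, and a lower pair, 2 and 3, and every one of them lay clear of the other 8 arrays. The difference was 1.29 ± 0.13, a 2.44-fold higher level and rank 3 among the upward differences of the 11835 genes, against 0.08 ± 0.13 with the anti-miR. Raw intensity went from 211.6 to 259.1 with scramble to 379.7 to 529.3 with the mimic.

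SYBU encodes syntabulin, an adaptor that links syntaxin-containing vesicles and mitochondria to the kinesin-1 motor for transport along axons. Its values were 8.18, 8.14, 8.0 and 8.23 with scramble, 7.72, 7.99, 7.98 and 7.72 with the mimic, and 8.69, 8.65, 8.89 and 8.72 with the anti-miR. The 3 groups did not overlap, with anti-miR highest, scramble between and mimic lowest, although scramble array 3 and mimic array 2 were only 0.01 apart in the rounded values. The anti-miR difference was 0.60 ± 0.09, a 1.52-fold higher level and rank 27 among the upward differences of all genes, and the mimic difference was -0.28 ± 0.09. Of the 10 genes, SYBU and NEFM were the ones whose 2 differences had opposite signs and were each at least 0.2 in size, and they ran in opposite orders. Raw SYBU intensity was 415.4 to 468.1 on anti-miR arrays against 320.5 to 426.1 on scramble arrays, so the raw ranges overlapped. Its raw mean was higher on anti-miR arrays, 444 against 364, although the median intensity of those arrays was lower. Over 20 other settings its anti-miR difference was 0.53 to 0.63, past limma's threshold in 8 of them.

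**Figure D2:**
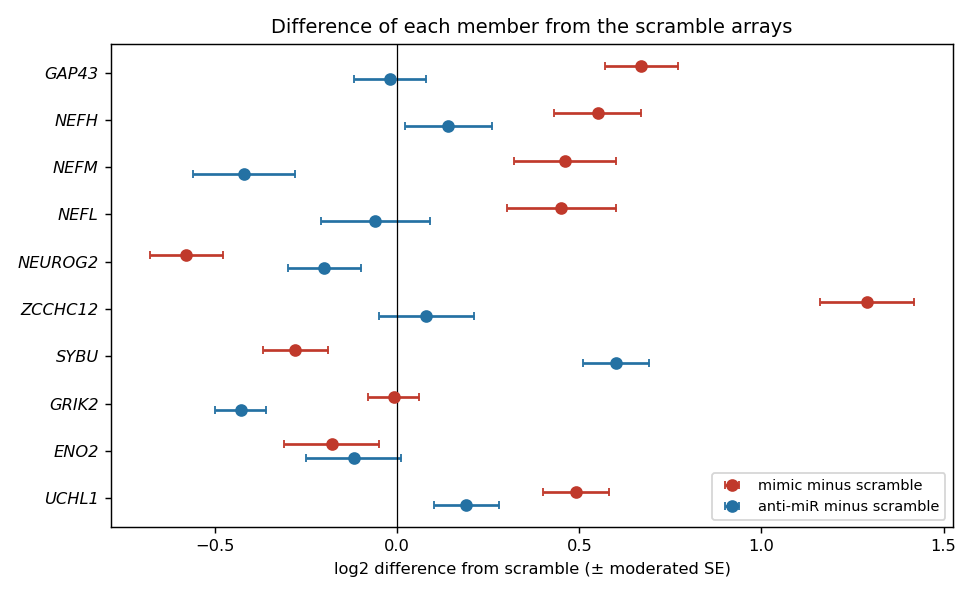
Points give each gene's log2 difference from the 4 scramble arrays (horizontal axis) for the mimic and for the anti-miR, with the moderated SE as bars. ZCCHC12 lies furthest right at 1.29 with the mimic; SYBU is at 0.60 with the anti-miR and -0.28 with the mimic.

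GRIK2 encodes GluK2, a subunit of kainate-type glutamate receptors, and is the one gene here with several detected probes. Its brightest probe read 6.37, 6.28, 6.26 and 6.28 with scramble, 6.31, 6.27, 6.31 and 6.25 with the mimic, and 5.95, 5.80, 5.79 and 5.94 with the anti-miR. Mimic and scramble arrays coincided (-0.01 ± 0.07), and all anti-miR arrays lay lower (-0.43 ± 0.07). The other 2 detected probes did not follow: their anti-miR differences were -0.16 ± 0.18 and -0.04 ± 0.12, and with the mean of the 3 probes the value was -0.21. These probes were dim, at 100.4 to 162.8 raw units for the brightest over all arrays. With the offset raised to 50 the value was -0.28, and in the authors' normalized table it was -0.56, so both its size and the probe it comes from limit this reading. The probe with the second highest signal had 1 mimic array at 5.14, mimic 3, against 5.91 to 6.16 for the rest of that group, and was not detected on it.

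**Figure D3:**
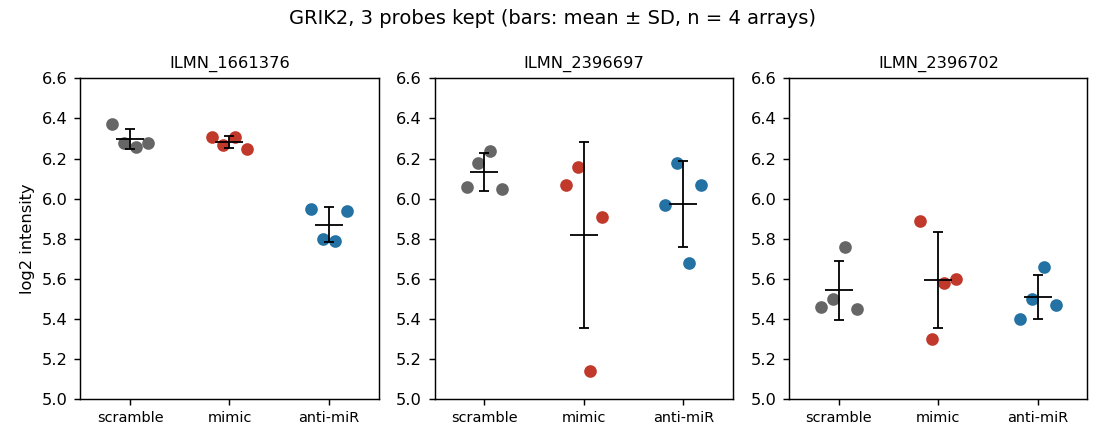
The 3 detected GRIK2 probes are shown side by side, with log2 intensity on a shared vertical axis, arrays as points and bars as mean ± SD. The first probe has all 4 anti-miR arrays at 5.79 to 5.95, below the other 8, and in the other probes the anti-miR arrays overlap the scramble arrays.

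ENO2 and UCHL1 are the 2 stains of neuroendocrine differentiation. ENO2, the neuronal enolase of glycolysis, read 9.23, 9.56, 9.78 and 9.82 with scramble, 9.52, 9.5, 9.29 and 9.35 with the mimic, and 9.49, 9.69, 9.36 and 9.38 with the anti-miR. The groups overlapped throughout and the scramble arrays had the widest spread, an SD of 0.27, with array 1 lowest. The differences were -0.18 ± 0.13 and -0.12 ± 0.13; without scramble array 1 they were -0.31 and -0.24. UCHL1 read 12.45, 12.62, 12.57 and 12.79 with scramble, 13.13, 12.95, 13.26 and 13.05 with the mimic, and 12.86, 12.70, 12.88 and 12.77 with the anti-miR. Its mimic arrays lay above all others, 0.49 ± 0.09 or 1.40-fold over scramble, and the anti-miR arrays were 0.19 ± 0.09 above scramble, overlapping through scramble array 4.

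Set directly against each other, mimic and anti-miR arrays did not overlap for 9 of the 10 genes, where 20.0% of all genes do so, 10.9% with the mimic higher and 9.10% with it lower; the same 9 passed limma's threshold, as did 15.0% of all genes, 7.82% higher and 7.19% lower, and nothing is read from these counts. The number past the threshold was 5 without mimic array 1, mimic array 4 or anti-miR array 2. The mimic was the higher of the pair for 7, namely GAP43, the 3 neurofilament genes, ZCCHC12, GRIK2 and UCHL1, and the lower for NEUROG2 and SYBU. The sizes ran from -0.89 ± 0.09 for SYBU to 1.21 ± 0.13 for ZCCHC12. For GRIK2 the value was 0.41 ± 0.07 from the brightest probe and 0.11 from the mean of its probes. ENO2 overlapped at -0.06 ± 0.13. This comparison shares its arrays with the 2 comparisons above and adds no separate evidence.

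The 4 mimic arrays did not differ from scramble by the same amount. For all 7 genes past the threshold under the mimic, array 2 was the mimic array nearest to the scramble mean. In these 7 genes array 2 showed a median of 69.6% of the group's difference, against 117% for array 1, 109% for array 3 and 115% for array 4. Over all 1919 called genes the same median was 75.3% for array 2 and 103% to 110% for the other 3, so the smaller differences on that array were not limited to the neural genes. Without mimic array 2 the differences were 0.75 for GAP43, 1.41 for ZCCHC12, 0.57 for NEFM and 0.56 for NEFL.

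**Figure D4:**
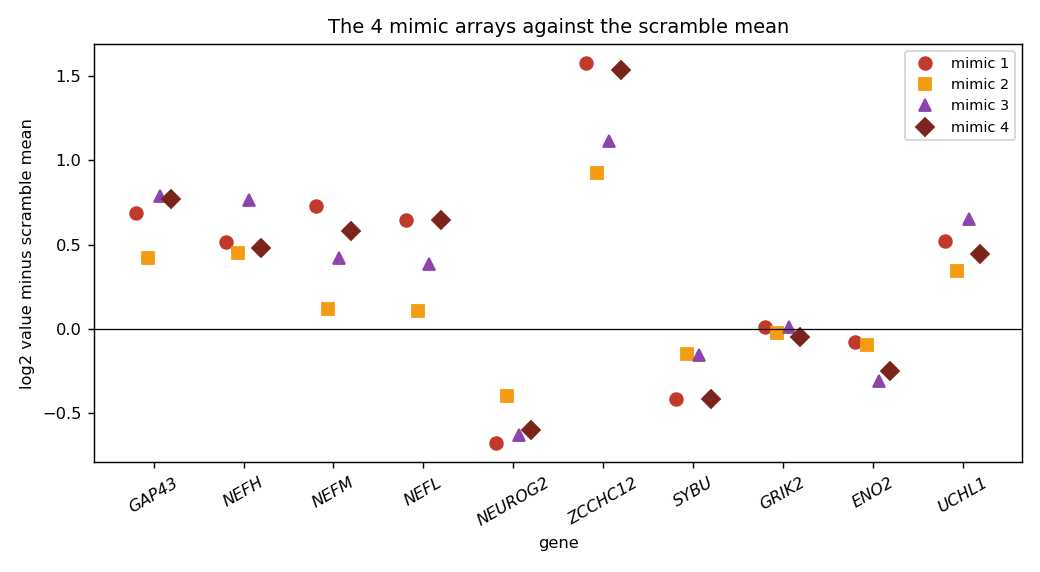
For each gene the 4 mimic arrays are plotted as the log2 value minus the mean of the scramble arrays, with 0 marking that mean. Array 2 is nearest to 0 for GAP43, the neurofilament genes, NEUROG2, ZCCHC12 and UCHL1.

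Genes that moved most like 4 of these were found by the root mean square difference of log2 values over the 12 arrays, each gene centred on its scramble mean. Nearest to GAP43 were TMEM41A (0.09), CTSC (0.10) and CHORDC1 (0.11). For ZCCHC12 the nearest were SGK1 (0.19), DPH3 (0.26) and TIMP3 (0.27). The distance was not scaled to the size of a gene's change, which was largest for ZCCHC12, so distances do not compare between the 4 genes. NEUROG2 was followed most closely by TRPT1, WASL and LOC101929622, each at 0.10. Closest to SYBU were MLLT6 (0.10), MLC1 (0.17) and PCOLCE (0.17), and MLLT6 gave -0.29 with the mimic and 0.55 with the anti-miR.

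Other genes of the same processes were taken from 9 lists of 268 symbols, of which 178 were tested. Under the mimic 10 of the 178 rose and 18 fell by limma, 15.7%, against 16.2% of all genes, so the wider neural lists changed about as often as the array as a whole. Their median difference was -0.03 against 0 over all genes. The count fell to 14 without scramble array 1, 18 without scramble array 3, 18 without mimic array 1, 16 without mimic array 3 and 18 without mimic array 4. With median scaling of the arrays it was 18, 6 higher and 12 lower. Under the anti-miR limma called 0 of the 178, with 30 at an unadjusted p under 0.05. When probes were averaged 1 passed, GRIK1. The lists below, in their order, had 20.8%, 20%, 14.7%, 7.14%, 6.67%, 18.2%, 18.8%, 10% and 17.4% of tested genes called under the mimic. Of all genes 16.2% were called, 7.44% higher and 8.77% lower, and nothing is read from the count of any 1 list.

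Among 24 tested genes of the axon cytoskeleton 3 rose and 2 fell, with a median of 0.04; 3 were called without scramble arrays 1 or 2 or mimic arrays 1, 3 or 4, or under median scaling. MAP1A, a microtubule-associated protein, rose by 0.71 ± 0.16 (adjusted p = 0.00979), from 7.01, 7.34, 7.28 and 7.32 with scramble to 8.05, 7.51, 8.24 and 7.99 with the mimic, with no overlap. MAP1B, another microtubule-associated protein, rose by 0.41 ± 0.13 (adjusted p = 0.0427). PRPH, which encodes peripherin, an intermediate filament protein of peripheral neurons, fell by 0.36 ± 0.09 on the log2 scale (adjusted p = 0.0169) and so went the other way from the neurofilament genes. CRMP1, a semaphorin signalling protein, fell by 0.38 ± 0.09 (adjusted p = 0.0162). PRPH was not called without scramble array 1 or mimic array 4 (adjusted p up to 0.0546), nor CRMP1 without mimic array 4 (0.0513). The MAP1B call ended in 12 of 20 settings, among them those without scramble arrays 1, 2 or 3, mimic arrays 1, 3 or 4, or anti-miR arrays 3 or 4 (up to 0.117).

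In growth cone and neurite outgrowth, where GAP43 acts, 2 of 20 tested genes rose and 2 fell, with a median of 0.01. RTN4, which encodes the neurite growth inhibitor Nogo, fell by 0.97 ± 0.12 (adjusted p = 0.00108), from 11.28, 11.22, 11.16 and 11.32 with scramble to 10.03, 10.68, 10.35 and 10.05 with the mimic. Its second detected probe gave -1.12. The axon guidance receptor gene ROBO1 fell by 0.90 ± 0.12 (adjusted p = 0.00127), from a mean of 7.61 to 6.71, and its 4 mimic arrays lay below all others. The anti-miR value of ROBO1 was -0.39 ± 0.12 (adjusted p = 0.146), with its anti-miR arrays also below all scramble arrays. For RTN4 the anti-miR value was 0.08 ± 0.12. The mimic calls of ROBO1 and RTN4 held in all 20 other settings. NRP1, a semaphorin receptor, was called at 0.44 ± 0.12 (adjusted p = 0.0249) and ENAH, an actin regulator of growth cones, at 0.37 ± 0.08 (adjusted p = 0.00961). Their second probes read -0.34 and -0.02, and with probes averaged the values were 0.05 and 0.18, neither called; ENAH was also lost under median scaling (0.30), and NRP1 without scramble arrays 1 or 3 or mimic arrays 1, 3 or 4 (adjusted p up to 0.0773).

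Among regulators that work with or against NEUROG2, 0 of 34 tested genes rose and 5 fell, with a median of -0.13. That is 14.7% of the list against 16.2% of all genes, of which 7.44% rose and 8.77% fell. The count was 3 without scramble array 1, scramble array 3 or mimic array 1 and with probes averaged, and 2 without mimic array 3. ID1, an inhibitor of basic helix-loop-helix factors, fell by 0.45 ± 0.11 (adjusted p = 0.0136), and its second probe gave -0.58. ATOH8, itself a basic helix-loop-helix factor, fell by 0.45 ± 0.11 (adjusted p = 0.0154, with a value of -0.28 at an offset of 50). SOX4, a transcription factor of immature neurons, fell by 0.47 ± 0.12 (adjusted p = 0.0164, or 0.0508 without mimic array 3). Their anti-miR values were 0.06 ± 0.11 for ATOH8 and -0.26 ± 0.12 for SOX4 (adjusted p = 0.282). The Notch ligand gene DLL3 fell by 0.32 ± 0.09 (adjusted p = 0.0253), a call lost without scramble arrays 1 or 3 or mimic arrays 1 or 3 and with probes averaged (up to 0.0731). Of 14 genes for the neuronal repressor REST and its corepressors 1 fell, RCOR3 (-0.40 ± 0.12, adjusted p = 0.0356), which was lost in 7 of 20 settings, without scramble arrays 1 or 2 or mimic arrays 1 or 4 among them (up to 0.106), leaving 0 called in that list, while 2 were called without mimic array 2 or with an offset of 50. Under the anti-miR RCOR3 gave -0.21 ± 0.12 (adjusted p = 0.382).

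For the receptor and transport partners, 1 of 15 glutamate receptor genes rose and 0 fell, with 2 called without scramble array 2 or with only the mimic and scramble groups fitted. That gene was GRIK1, another kainate receptor subunit gene, at 0.61 ± 0.12 (adjusted p = 0.00515), from 5.47, 5.33, 4.98 and 5.03 to 6.03, 5.82, 5.71 and 5.70. Its second detected probe gave 0.34, and the anti-miR value was 0.51 ± 0.12 (adjusted p = 0.0983). With an offset of 50 the mimic value was 0.35, and from the authors' normalized values it was 0.98. The signal was near background, since the probe was detected on 2 of the 4 scramble arrays. In kinesin-1 and syntaxin transport, the process of SYBU, 1 of 22 genes rose and 3 fell; 1 was called without scramble arrays 1 or 3 or mimic array 3 or under median scaling, and 2 without scramble array 2 or mimic arrays 1 or 4. The one that rose was KIF5B, the kinesin-1 heavy chain that carries syntabulin, at 0.38 ± 0.10 (adjusted p = 0.0181; not called without mimic array 1 or under median scaling, up to 0.0646). SYT4 (-0.53 ± 0.14, adjusted p = 0.0192), a synaptotagmin, read -0.32 with an offset of 50 and was not called without scramble arrays 1, 2 or 3 or mimic array 3. RHOT1 (-0.44 ± 0.13, adjusted p = 0.0341), a mitochondrial transport GTPase, had other probes at -0.26, 0.21 and -0.10 and a value of -0.15 with probes averaged, and FEZ2 (-0.32 ± 0.09, adjusted p = 0.0283) a second probe at -0.34. These calls were lost in 8 and 7 of 20 settings, for RHOT1 without scramble arrays 1, 2 or 3 or mimic arrays 3 or 4 and for FEZ2 without scramble arrays 1 or 3 or mimic arrays 1, 3 or 4. Anti-miR values were -0.31 ± 0.13 for RHOT1 (adjusted p = 0.254), -0.17 ± 0.09 for FEZ2 and -0.01 ± 0.10 for KIF5B.

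In the BMP and SMAD list, the pathway in which mouse ZCCHC12 acts, 1 of 16 genes rose and 2 fell; 0 were called without scramble array 1 or mimic array 4 and 1 without scramble array 3. The ligand gene BMP2 rose by 0.61 ± 0.16 (adjusted p = 0.0209; up to 0.0664 without scramble arrays 1 or 3 or mimic array 4). SMAD9, a transducer of BMP signals, fell by 0.37 ± 0.10 (adjusted p = 0.0247) with a second probe at -0.80 and -0.58 with probes averaged, and was not called without scramble arrays 1, 2 or 3 or mimic arrays 3 or 4 (up to 0.0764). MOAP1, a PNMA family protein as ZCCHC12 is, fell by 0.43 ± 0.12 (adjusted p = 0.0290; not called without scramble array 1 or mimic arrays 1, 3 or 4, up to 0.0835). Of 10 enolase and ubiquitin hydrolase genes only ENO3, the muscle enolase, changed (-0.38 ± 0.09, adjusted p = 0.0110), and its second probe read -0.05. With probes averaged the ENO3 value was -0.21 and not called (adjusted p = 0.134), which left 0 called genes in the list; the ubiquitous enolase ENO1 gave -0.01 ± 0.07.

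Of 23 other neuronal and neuroendocrine genes 2 rose and 2 fell, with a median of 0.11; 2 were called without scramble arrays 1 or 2 or mimic arrays 1 or 3. THY1, a surface glycoprotein of neurons that fibroblasts also carry, rose by 0.62 ± 0.12 (adjusted p = 0.00427), from 6.66, 6.75, 6.44 and 6.76 to 7.47, 7.0, 7.21 and 7.43. NGFR, the p75 neurotrophin receptor gene, rose by 0.57 ± 0.15 (adjusted p = 0.0200; up to 0.0651 without scramble arrays 1 or 2 or mimic arrays 1 or 3). RTN2, a reticulon like RTN4, fell by 0.61 ± 0.14 (adjusted p = 0.0116). SCG2, a secretory granule protein, fell by 0.38 ± 0.12 (adjusted p = 0.0420), a call lost in 10 of 20 settings, without scramble arrays 1, 2 or 3 or mimic arrays 1, 2 or 3 among them. Of 14 markers of fibroblasts, epithelium, blood and endothelium with a probe, 7 were detected on 0 arrays, CDH1, PTPRC and PECAM1 among them. Another 4 were detected on all 12 arrays: COL1A1, COL3A1, DCN and CD68. The remaining 3 were detected on some arrays, with LUM on 7. Fibroblast transcripts were thus partly present on these arrays. Of the 6 markers tested 1 rose under the mimic, COL1A1, and 0 fell. That is 16.7%, against 16.2% of all genes, 7.44% higher and 8.77% lower, and nothing is read from it. Their median difference was -0.14 against 0 over all genes. The log2 of their summed intensity was 10.46 to 10.76 on scramble and 10.41 to 10.80 on mimic arrays, which overlap. The part of these markers in the THY1 value was not tested.

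**Figure D5:**
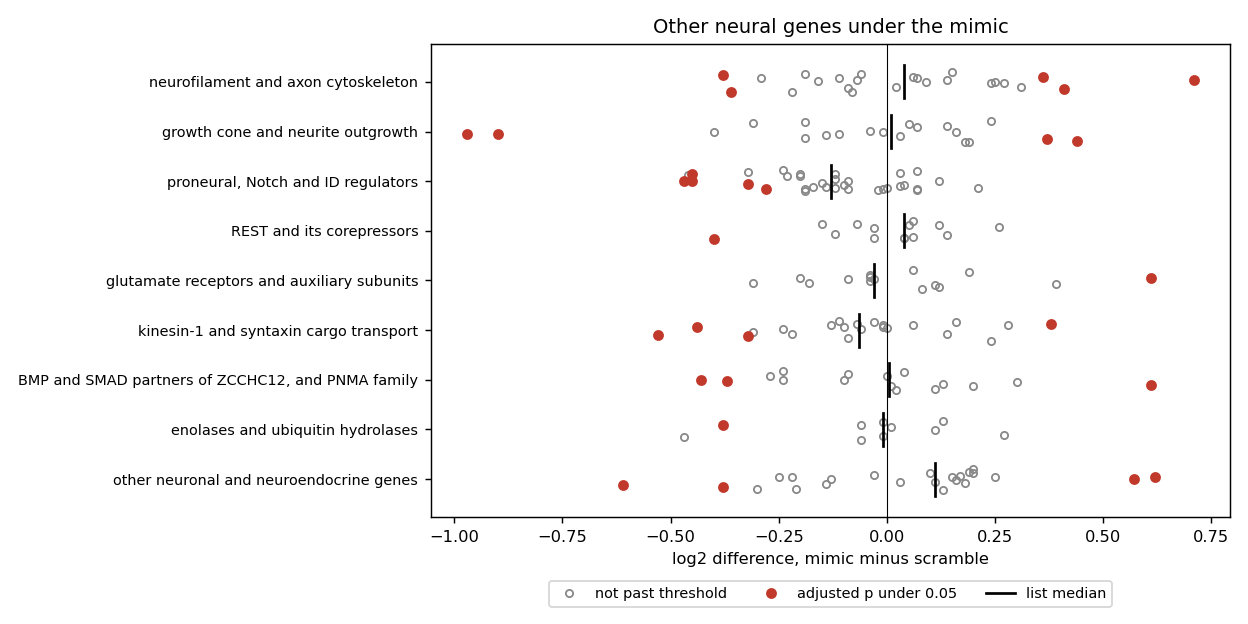
Every tested gene of the 9 lists is 1 point at its log2 difference between mimic and scramble (horizontal axis), filled where limma's adjusted p was under 0.05, and a bar marks the list median. RTN4 (-0.97) and ROBO1 (-0.90) lie furthest left and MAP1A (0.71) furthest right.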

How the data were processed

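Trizol-extracted total RNA was amplified to biotinylated cRNA for Illumina bead arrays, per the labels' protocols. The deposited raw table holds, by its column headers, the average signal of each probe on each array. It is named as non-normalized, and the headers themselves do not mention scaling between arrays. Beside each intensity the deposited table gives a detection p-value. The authors' normalized table holds intensity on a linear scale for the same probes; its median is 12 on each array and 159270 values are below 0, and it was made by a method not given in the sources used here, and 12 of 12 columns matched their own raw array best.

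Raw intensity was corrected with limma's normexp model (limma 3.58.1, R 4.3.3), the background estimated from detection p-values, and an offset of 16. Quantile normalization and log2 followed. Probes with detection p under 0.05 on at least 4 of 12 arrays were kept (20768). The platform's table named 1 gene for 30113 probes, several for 8 and none used here for 17201; 30074 symbols were updated by Entrez identifier. The brightest kept probe stood for a gene. The 12 arrays entered one limma model that estimates 3 group means, with Benjamini-Hochberg adjustment over 11835 genes in each comparison. On simulated data for mimic against scramble over 11835 genes it recovered 60% of 100 genes changed by 0.5 and 94% of 100 changed by 1 (log2), with 10 false among 164 calls. Only those genes were changed, with independent noise, whereas 1919 genes were called in the data. The recovered shares need not hold for these arrays.

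The 10 genes and all lists were chosen with earlier results of these data known. Named genes are the 10, up to 4 called genes with the largest change per list, and the 3 genes nearest in pattern to 4 of the 10; ENO1 and the genes under other observations fall outside this rule and were chosen after their values were seen. Same-numbered arrays of different groups showed weak correlations of deviations, -0.22 to 0.23 over all pairs and 0.04 to 0.23 between mimic and anti-miR. The labels name no pairing, so the main model used none. With 4 arrays per group these correlations cannot exclude a shared culture or batch. The number of arrays limits the precision.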

Additional observations from a re-analysis of the deposited data

Results flagged for a closer look

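In a group of 4 arrays, a value was marked when its gap to the nearest of the others, as a share of the group's range, exceeded Dixon's critical value. This was tested for 38 probes in 3 groups, 114 groups in all, and 7 were marked; chance marks about 1 in 20 groups. For GRIK2, scramble array 1 read 6.37 on the brightest probe against 6.26 to 6.28 on the other scramble arrays, and scramble array 3 read 5.76 on the dimmest detected probe against 5.45 to 5.50. NRP1 read 6.86 on mimic array 2 against 7.31 to 7.37 on the other mimic arrays. SOX4 read 8.68 on mimic array 3 against 8.95 to 8.97, and its call was lost without that array. SYT4 read 5.57 on scramble array 4 against 6.03 to 6.09. MOAP1 read 9.32 on scramble array 1 against 8.86 to 8.91, and its call was lost without that array. SMAD9 read 7.68 on scramble array 4 against 7.99 to 8.04.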

How the results depend on the processing

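The counts, the 10 genes and the 26 named list genes were recomputed under 20 alternatives, 8 in the processing or the model and 12 that each left out 1 array. Under the mimic the called genes numbered 1919, 881 higher and 1038 lower; median scaling gave 1444, 500 higher and 944 lower (34.6% higher against 45.9%), and leaving out 1 array gave 1107 to 2072, with 1107 without scramble 1, 1196 without mimic 3 and 1171 without mimic 4. Other neural genes called under the mimic, 28, became 18 with median scaling and 14 to 30 without 1 array. Under the anti-miR the 15 called genes became 0 with median scaling, 6 with no filter on dim probes, 30 with an offset of 50, 0 with only the 2 groups compared, 2 with the replicate block and 0 to 32 without 1 array: 10 without mimic 2, 20 without mimic 3, 32 without anti-miR 2, and 0 or 1 without any other array. Other neural genes called under the anti-miR, 0, became 1 with the mean of kept probes and stayed at 0 without any 1 array. Between mimic and anti-miR the 1777 called genes became 874 to 1860 without 1 array (874 without mimic 1, 957 without mimic 4), and the 27 other neural genes 13 to 29 (13 without mimic 1, 17 without mimic 4). The replicate block, which rests on numbers that are not known to pair arrays, gave 1797 called genes under the mimic and 28 other neural genes. Between the reagents it gave 1590 and 25. Only 2 of 12 arrays resembled a same-numbered array best. Of 26 named list genes 8 stayed called under the mimic in all 20 settings: RTN4, ROBO1, MAP1A, THY1, RTN2, ID1, ATOH8 and GRIK1. The cause of the other changes was not tested. No called value among these changed sign. Of the 10 genes, chosen on these arrays, the number past the threshold was 5 to 8 under the mimic (7 as reported), 0 to 2 under the anti-miR (2) and 5 to 9 between the reagents (9). The genes nearest in pattern, ENO1 and those under other observations were not recomputed. Dim signal limits GRIK1, GRIK2, ATOH8 and SYT4, whose sizes depended on the offset. The size of the NEUROG2 mimic difference depended on the offset too, at -0.44 with an offset of 50 against -0.58 as reported.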

Other observations

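Between mimic and anti-miR limma called 27 of the 178 tested genes of the neural lists, 12 higher and 15 lower. That is 15.2%, against 15.0% of all genes, 7.82% higher and 7.19% lower, so nothing is read from the count. Some of these genes passed the threshold between the reagents without passing against scramble. Those named here were chosen after their values were seen. ROBO2, an axon guidance receptor like ROBO1, differed by -0.61 ± 0.10 (adjusted p = 0.00186), with 0.42 ± 0.10 for the anti-miR and -0.19 ± 0.10 for the mimic against scramble. SLC18A3, the vesicular acetylcholine transporter gene, differed by -0.60 ± 0.11 (adjusted p = 0.00379) and TUBB3, the neuronal tubulin gene, by -0.30 ± 0.08 (adjusted p = 0.0260). In the other direction BASP1, a growth cone protein that resembles GAP-43 in its membrane binding, differed by 0.34 ± 0.08 (adjusted p = 0.0131), UCHL3, a relative of UCHL1, by 0.37 ± 0.10 (adjusted p = 0.0290), and ZCCHC18, a relative of ZCCHC12, by 0.40 ± 0.10 (adjusted p = 0.0177). The intermediate filament gene INA, which encodes a partner of the neurofilament subunits, gave 0.25 ± 0.11 with the mimic and 0.40 ± 0.11 with the anti-miR against scramble, neither past the threshold.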
